A study of Homo sapiens with 8 samples.

Results

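The genes described here encode enzymes that metabolise foreign compounds and their reactive products, together with a small set of antioxidant enzymes, and leave out the CYP1 family. Members were chosen by symbol: cytochrome P450 genes other than the CYP1 and CYP26 families and CYP51A1, the glutathione S-transferases (GST), UDP-glycosyltransferases (UGT), sulfotransferases (SULT) and aldehyde dehydrogenases (ALDH) other than ALDH1A2, and NQO1, HMOX1, GCLC, GCLM, TXNRD1 and SRXN1. Of the 27317 symbols in the count tables, 132 matched these names, and 72 of them had a summed raw count of at least 40 over the 8 libraries and are the members. That minimum is the only measured value in the rule, but the rule was set with earlier results of these data known. Just inside it stood CYP3A4 with 40 counts and CYP24A1 with 43, and just outside it GSTM2P1 with 39 and ALDH3B2 with 36. The members were 27 of 49 matching P450 genes, 17 of 20 ALDH, 12 of 21 GST, 4 of 22 UGT, 6 of 14 SULT and all 6 antioxidant genes. The name match also took in CYP2D7, a P450 pseudogene, and ALDH1L1-AS2, an antisense transcript, neither of which is an enzyme gene. After a filter on low counts, 70 members were tested among 17268 genes, and CYP2A6 and CYP3A4 were not. A low member that is mostly counted in a single group reached the minimum through that group, as CYP24A1 did with 37 of its 43 counts at D2.

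RNA was sequenced from MEL1, a human embryonic stem cell line, so every group comes from a single cell line. The groups were TCDD at D2, DMSO at D2, TCDD at D1 and DMSO at D1, with 2 libraries each. TCDD (2,3,7,8-tetrachlorodibenzodioxin), a ligand of the aryl hydrocarbon receptor (AHR), was given at 2 nM in DMSO, the control groups received the same volume of DMSO, and all groups thus carried the solvent. D1 libraries were taken before differentiation began, and D2 libraries after 2 days in a cardiac differentiation medium with 5 µM of the GSK3 inhibitor CHIR99021. The comparisons ask which of these genes TCDD changed in stem cells and after 2 days of differentiation, and which changed between the stages. The labels do not say that libraries of a group came from separate cultures, so p-values measure only the spread between these libraries, which may be technical.

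Metabolism of foreign compounds runs in stages. P450 enzymes, aldehyde dehydrogenases and quinone reductases alter functional groups, and transferases then attach glutathione, a sugar or sulfate so that the product can be exported. AHR and NRF2, the product of NFE2L2, are the transcription factors best known for inducing such enzymes. Ligand-bound AHR joins ARNT and binds xenobiotic response elements (XRE) with the core GCGTG. NRF2 is held back by KEAP1 and acts through antioxidant response elements (ARE). Many members serve normal lipid, steroid, retinoid or amino acid metabolism, and most of the drug-metabolising members are known best from the liver.

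Library totals ran between 34873055 and 43770420 counts, so 1 CPM (a count scaled to the TMM-adjusted library total) equals 36.3 to 42.9 reads. TCDD exposure was visible in its standard target genes. CYP1A1 had 2.56 and 1.82 CPM with TCDD at D2 against 0.464 and 0.292 CPM with DMSO at D2, and 101 and 77.7 CPM with TCDD at D1 against 0.761 and 0.813 CPM with DMSO at D1. Of CYP1A1, CYP1A2, CYP1B1 and TIPARP, 3 of 4 passed as higher with TCDD at D2 and 4 of 4 at D1. POU5F1, a pluripotency factor, stood at 447 to 540 CPM in every library. At D2, 7 of 7 primitive streak markers and 4 of 4 definitive endoderm markers tested were higher than at D1 with either treatment. The 7 hepatocyte markers summed to 0.641 to 0.933 CPM in every library, with ALB at 0.0826 CPM or less. The sum of the 7 streak markers was 474 and 545 CPM with TCDD at D2 against 788 to 810 CPM with DMSO at D2. The sum of 8 pluripotency markers was 5340 to 5350 CPM with TCDD at D2 against 4840 to 4930 CPM with DMSO at D2. At D2 the 5 definitive endoderm markers summed to 28.9 to 32 CPM with TCDD against 45.6 to 48.7 CPM with DMSO, the 6 fibroblast and stroma markers, among which LUM had no count, to 291 to 292 CPM with TCDD against 226 to 240 CPM with DMSO, the 5 neuroectoderm markers to 349 to 365 CPM with TCDD against 328 to 336 CPM with DMSO and the 5 trophoblast markers to 1.57 to 1.59 CPM with TCDD against 0.973 to 1.2 CPM with DMSO. Some of these D2 sums rested on few markers. CER1 was the endoderm marker that passed as lower (mean 14.6 against 31.1 CPM), while HHEX had 8.43 against 8.37 CPM. Of 3 stroma markers tested, COL1A1 passed as higher (log2 fold change 0.54), and COL1A2 had -0.06. Of 7 streak markers 4 passed as lower, and SP5 and MESP1 had 0.11 and 0.35. Of 8 pluripotency markers 2 passed as higher, and NANOG had -0.15. No neuroectoderm or trophoblast marker passed. These marker differences accompany every TCDD result at D2 below, and their part in those results was not tested. At D1, the fibroblast and stroma markers summed to 459 to 483 CPM with TCDD against 424 to 425 CPM with DMSO, and the neuroectoderm markers to 517 to 562 CPM with TCDD against 618 to 631 CPM with DMSO. COL1A1 (log2 fold change 0.2) and NES (-0.21) were the markers of these lists that passed at D1. The part of these differences in the D1 results was not tested either. In such bulk RNA, fewer cells with a transcript and less transcript per cell cannot be told apart.

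Together the members took 0.277% to 0.311% of the counts in a library. Mean levels over the 8 libraries were at least 100 CPM for 9 members, 10 to under 100 CPM for 25, 1 to under 10 CPM for 20, and under 1 CPM for 18. GSTP1, the pi-class glutathione transferase, alone held 19.1% to 20.8% of the members' CPM. Levels of different genes were compared per kb of exon, with lengths of 71 members from GENCODE v29, and GSTP1 led with a mean of 618 CPM per kb. GSTO1, an omega-class transferase, followed at 98.5 CPM per kb, then ALDH3A2, the fatty aldehyde dehydrogenase of the endoplasmic reticulum, at 64.7, and ALDH18A1, which makes a proline precursor, at 59.8 CPM per kb. Among P450 genes the highest was CYP2S1 at 47.7 CPM per kb, an enzyme expressed mostly outside the liver. The leading antioxidant gene was TXNRD1, thioredoxin reductase, at 46.9 CPM per kb. In the other transferase families the leaders were UGT3A2, at 19.9, and the brain sulfotransferase SULT4A1, at 6.13 CPM per kb. CYP3A4, the main drug-metabolising P450 of adult liver, had 0.0826 to 0.193 CPM.

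**Figure D1:**
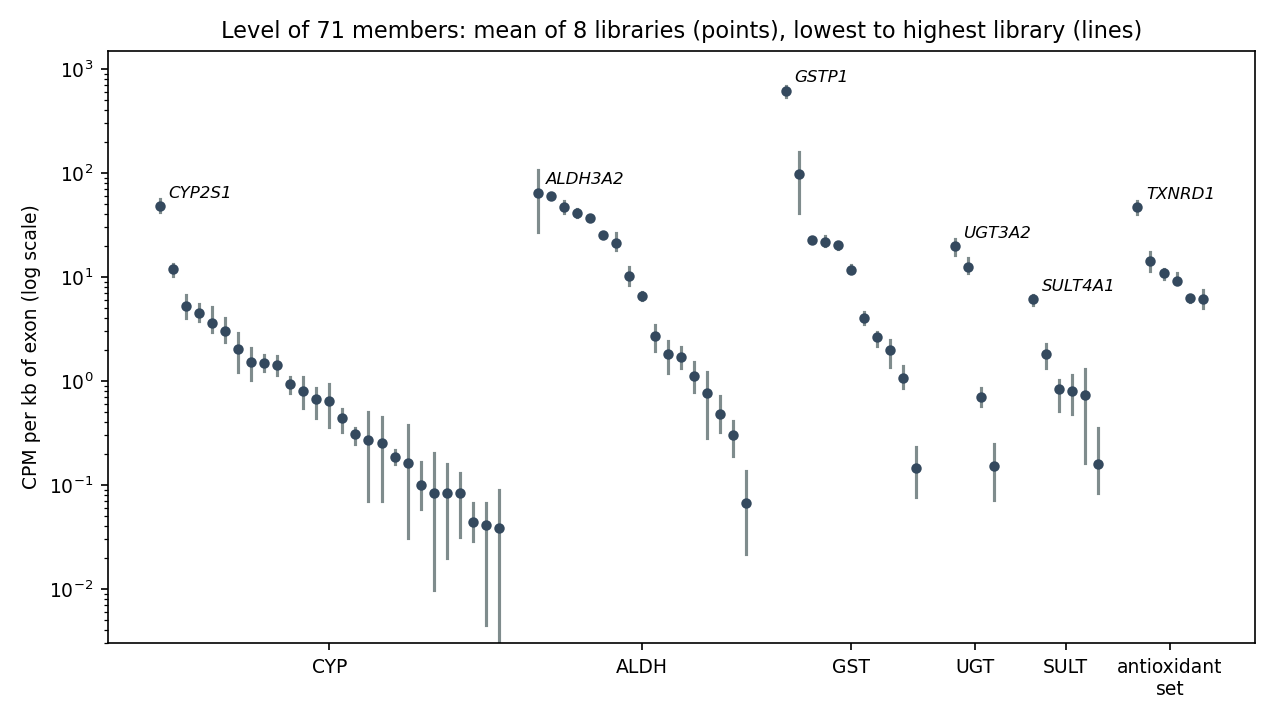
Level of 71 members by family in CPM per kb of exon on a log scale, ordered within each family, with the mean over 8 libraries (points) and the range from the lowest to the highest library (lines; a library at 0 is drawn to the foot of the axis). GSTP1 stands highest with a mean of 618 CPM per kb, and most low members are P450 genes.

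Of the 132 matching symbols, 25 had no count in any library and 35 had 1 to 39 counts. The symbols without a count were 9 UGT, 6 SULT, 5 P450 and 5 GST genes. UGT1A1, the bilirubin glucuronosyltransferase, had 0 counts. Genes of the UGT1A cluster share their last exons, and how reads in shared exons were counted is not given in the sources used here, so a listed 0 does not show that such a transcript is absent.

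TCDD changed few members at either stage. At D2, 2 members were higher and 1 was lower of 70 tested, beside 1.4% higher and 1.5% lower among all 17268 genes, and 2.9% in either direction. The D1 comparison gave 2 higher and 0 lower, beside 0.735% higher and 0.405% lower among all genes, and 1.14% in either direction. Counts this small are close to those shares, and nothing about the members as a set is read from them. At an unadjusted p under 0.05, 10 members (14.3%) passed at D2 and 4 (5.71%) at D1, beside 14% and 10.3% of all genes, so these shares too were near or below the background. The median log2 fold change of the tested members was -0.02 at D2, against 0.00 for all genes, and 0.05 at D1, against 0.00 for all genes. Among the 54 members with a mean of at least 1 CPM, log2 fold changes lay between -0.59 and 0.64 at D2 and between -0.15 and 0.49 at D1. No member passed with a change of 2-fold or more. Among all genes, 0.133% did so as higher and 0.174% as lower at D2, and 0.151% and 0.0174% at D1. Separation of TCDD from DMSO libraries was common. At D2 both TCDD libraries lay above both DMSO libraries for 18 members and below them for 20, and 34 members overlapped. The D1 counts were 24, 6 and 42. How often all genes separate in this way was not counted, so nothing about the members as a set is read from these counts. Most separated members did not pass, so a lack of overlap is given below as a description, not as added evidence.

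**Figure D2:**
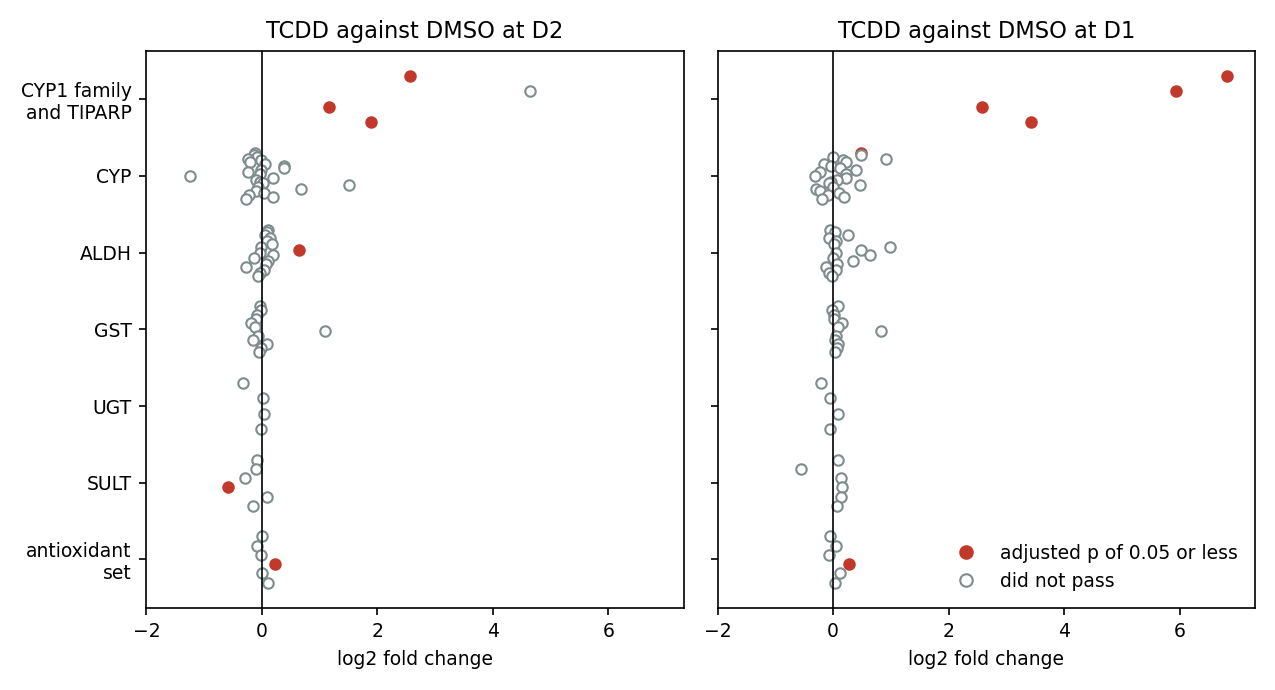
Log2 fold change of TCDD against DMSO at D2 (left) and at D1 (right) for the 70 tested members by family, with CYP1A1, CYP1A2, CYP1B1 and TIPARP in the top row for scale. Filled points had an edgeR p (Benjamini-Hochberg) of 0.05 or less. The member values cluster around 0, with 3 filled member points at D2 and 2 at D1.

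In the antioxidant set, NQO1 was the member that rose, and it rose at both stages. NQO1 encodes a quinone reductase that is a known target of both AHR and NRF2. It had 44.3 and 42.3 CPM with TCDD at D2, against 37.9 and 35.9 CPM with DMSO at D2. Both TCDD libraries lay above both DMSO libraries, and the fold was 1.17 (log2 fold change 0.23 ± 0.06 SE, edgeR adjusted p = 0.0222). At D1 it had 52.9 and 54.3 CPM with TCDD, against 45.1 and 43.0 CPM with DMSO. The groups again did not overlap, with a fold of 1.22 (log2 fold change 0.28 ± 0.05, edgeR adjusted p = 0.00751). The difference of the effects, D2 minus D1, was -0.05 ± 0.08 on the log2 scale (edgeR adjusted p = 0.886). Leaving out any 1 of the 4 D2 libraries ended the D2 call (edgeR adjusted p = 0.059 to 0.306), and leaving out DMSO replicate 2 ended the D1 call (0.106).

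The other 5 antioxidant genes did not pass at either stage. HMOX1, heme oxygenase, had 16.0 and 15.5 CPM with TCDD at D2 against 15.7 and 16.0 CPM with DMSO at D2, and 16.9 and 17.0 CPM with TCDD at D1 against 19.8 and 16.1 CPM with DMSO at D1. Its TCDD and DMSO libraries overlapped at both stages. GCLC and GCLM, the catalytic and modifier subunits of the enzyme that starts glutathione synthesis, had log2 fold changes of 0.01 ± 0.05 and -0.09 ± 0.06 at D2, and of -0.05 ± 0.05 and 0.05 ± 0.06 at D1. TXNRD1 stood at 0.11 ± 0.04 at D2 and 0.04 ± 0.04 at D1. SRXN1, sulfiredoxin, which repairs oxidised peroxiredoxins, stood at 0.00 ± 0.08 at D2 and 0.12 ± 0.07 at D1. The lowest edgeR adjusted p of these 5 genes was 0.227, that of TXNRD1 at D2.

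Among 10 regulators of the pathway, NFE2L2 itself was the gene that passed. It had 43.8 and 47.2 CPM with TCDD at D2 against 37.7 and 38.6 CPM with DMSO at D2 (log2 fold change 0.25 ± 0.06, edgeR adjusted p = 0.0132), and 49.4 and 51.7 CPM with TCDD at D1 against 42.8 and 40.7 CPM with DMSO at D1 (0.28 ± 0.06, edgeR adjusted p = 0.012). No TCDD library overlapped a DMSO library of its stage. Each call was lost without either DMSO library or without TCDD replicate 2 of its stage, with edgeR adjusted p up to 0.244 at D2 and 0.139 at D1. Of 23 further NRF2 targets tested, 0 passed at D2 and 0 at D1, with 3 and 0 at an unadjusted p under 0.05. Of 29 glutathione, peroxide and superoxide enzymes, 0 passed at either stage, with 2 and 2 at an unadjusted p under 0.05. The 7 P450 redox partners, which pass electrons to P450 enzymes, and 16 other xenobiotic enzymes also gave 0 calls at either stage, with 2 and 4 at an unadjusted p under 0.05 at D2 and 1 and 0 at D1. These counts are from edgeR, and DESeq2 gave 0 calls in each of these lists at either stage. Among all genes, 2.9% passed at D2 and 1.14% at D1, and 14% and 10.3% had an unadjusted p under 0.05. At those shares few or no calls are expected in lists of this size, so nothing about a list is read from its count. PAPSS2, which makes the sulfate donor used by sulfotransferases, was lower at D1, with 49.4 and 46.2 CPM in TCDD libraries against 57.9 and 55.7 CPM in DMSO libraries (-0.25 ± 0.06, edgeR adjusted p = 0.0263), and had -0.12 at D2 (edgeR adjusted p = 0.351). Its D1 call was lost when only the D1 libraries were fitted (edgeR adjusted p = 0.0546) and in fits that left out any D1 library but TCDD replicate 1 (0.0709 to 0.381).

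CYP11A1, the mitochondrial enzyme that cleaves the cholesterol side chain in the opening step of steroid hormone synthesis, was higher with TCDD in undifferentiated cells. It had 12.5 and 11.0 CPM with TCDD at D1, against 8.52 and 8.39 CPM with DMSO at D1. The groups did not overlap, and the fold was 1.39 (log2 fold change 0.48 ± 0.09, edgeR adjusted p = 0.00768). The D2 values were 7.12 and 7.32 CPM with TCDD, against 7.78 and 7.91 CPM with DMSO (-0.12 ± 0.10, edgeR adjusted p = 0.649). CYP11A1 was the member whose TCDD effect differed between the stages, by -0.60 ± 0.14 on the log2 scale for D2 minus D1 (edgeR adjusted p = 0.0367). In that comparison 0 members passed as higher and 1 as lower, beside 0.527% and 0.295% of all genes, 0.822% in either direction. Of 8 fits that left out a library, the difference passed in 1, without TCDD replicate 2 of D1 (in the other fits edgeR adjusted p = 0.101 to 0.15), and DESeq2 gave an adjusted p of 0.127. Its D1 call was lost without either DMSO library of D1 or without TCDD replicate 1 of D1 (edgeR adjusted p = 0.0669 to 0.105).

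ALDH1L2, the mitochondrial formyltetrahydrofolate dehydrogenase of folate metabolism, showed the largest rise of the members that passed. It had 9.80 and 10 CPM with TCDD at D2, against 5.90 and 6.81 CPM with DMSO at D2. The groups did not overlap, and the fold was 1.55 (log2 fold change 0.64 ± 0.12, edgeR adjusted p = 0.00371). At D1 it had 11.4 and 8.73 CPM with TCDD, against 7.68 and 6.76 CPM with DMSO, and did not pass (0.49 ± 0.12, edgeR adjusted p = 0.0508). Without TCDD replicate 1 of D1 the D1 value was 0.27 (edgeR adjusted p = 0.395). The difference of its effects, D2 minus D1, was 0.15 ± 0.17 (edgeR adjusted p = 0.827). Without DMSO replicate 1 of D2 the D2 call was lost (edgeR adjusted p = 0.0842). ALDH1L1, its cytosolic counterpart, had log2 fold changes of 0.18 ± 0.22 at D2 and 0.01 ± 0.14 at D1 and did not pass (edgeR adjusted p = 0.791 and 0.994).

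SULT1C4, a cytosolic sulfotransferase, was the member that fell with TCDD. It had 2.47 and 2.70 CPM with TCDD at D2, against 4.20 and 3.55 CPM with DMSO at D2. Both TCDD libraries lay below both DMSO libraries, and the change was -0.59 ± 0.15 on the log2 scale (edgeR adjusted p = 0.0345). The D1 libraries overlapped, with 3.34 and 3.99 CPM with TCDD and 3.19 and 3.38 CPM with DMSO (0.15 ± 0.14, edgeR adjusted p = 0.803). The difference of its effects, D2 minus D1, was -0.73 ± 0.21 and did not pass (edgeR adjusted p = 0.131). DESeq2 gave an adjusted p of 0.193 at D2, and the call was also lost without DMSO replicate 1 or either TCDD library of D2 (edgeR adjusted p = 0.128 to 0.382). SULT1C2, which neighbours it, had log2 fold changes of -0.29 ± 0.20 at D2 and 0.14 ± 0.18 at D1 and did not pass (edgeR adjusted p = 0.56 and 0.867).

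**Figure D3:**
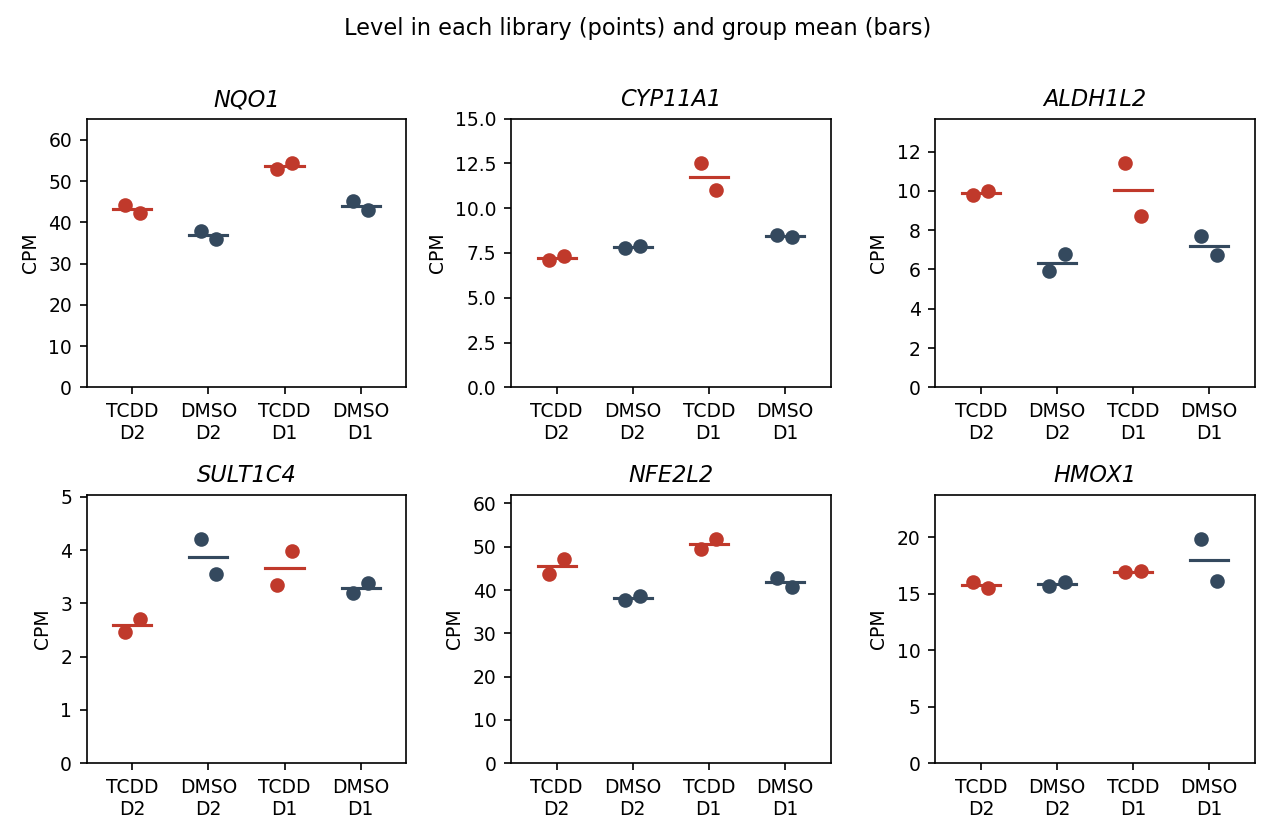
Level in CPM of the 4 members that passed with TCDD, of NFE2L2 and of HMOX1 in each library (points) with group means (bars), axes starting at 0. NQO1 and NFE2L2 passed as higher with TCDD at both stages, CYP11A1 at D1 and ALDH1L2 at D2, and SULT1C4 passed as lower at D2. ALDH1L2 was also higher in both TCDD libraries of D1 but did not pass there. The HMOX1 libraries overlap at both stages.

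Promoter windows are shown for the members with a RefSeq window among the 4 that passed, because AHR is a DNA-binding receptor. The windows (RefSeq, GRCh38.p14) hold 250 bases before the gene start and the next 10 bases, written 5′ to 3′ on the gene's strand, with GCGTG or its reverse complement CACGC in capitals. NQO1 lies at chr16:69726551-69726810 on the minus strand, CYP11A1 at chr15:74367637-74367896 on the minus strand and SULT1C4 at chr2:108377704-108377963 on the plus strand.
NQO1: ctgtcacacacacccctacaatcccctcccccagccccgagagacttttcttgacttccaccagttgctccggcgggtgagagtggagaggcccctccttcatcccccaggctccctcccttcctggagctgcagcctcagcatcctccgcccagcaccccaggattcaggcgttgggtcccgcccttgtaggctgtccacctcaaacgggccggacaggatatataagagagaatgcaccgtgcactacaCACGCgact
CYP11A1: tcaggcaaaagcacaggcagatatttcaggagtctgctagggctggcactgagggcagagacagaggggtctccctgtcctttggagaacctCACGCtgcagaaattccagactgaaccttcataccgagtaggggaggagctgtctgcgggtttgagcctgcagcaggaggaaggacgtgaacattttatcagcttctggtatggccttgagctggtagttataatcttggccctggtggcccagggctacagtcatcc
SULT1C4: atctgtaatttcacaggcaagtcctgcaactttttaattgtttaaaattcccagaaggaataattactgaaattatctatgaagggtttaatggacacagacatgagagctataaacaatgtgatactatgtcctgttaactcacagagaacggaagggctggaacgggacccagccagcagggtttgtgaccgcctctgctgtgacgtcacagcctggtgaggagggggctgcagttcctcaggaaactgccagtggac
The NQO1 window held 1 core, beginning at base 252 of the window and reading GCGTG on the opposite strand. The CYP11A1 window held 1, beginning at base 93, also on the opposite strand. The SULT1C4 window held none. Searched on both strands over the full 300 bases (250 before and 50 after the start), the XRE core occurred in 26 of 76 windows of the 56 members with a window, 34.2%, and in 12832 of 35116 windows of all genes, 36.5%. The ARE pattern TGACNNNGC occurred in 12 of 76 member windows, 15.8%, and in 13.3% of all windows. The final GC of the ARE pattern can also begin an XRE core, and a match describes letters in the window, not a bound site.

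The classical AHR gene battery includes 4 genes of these families outside CYP1, and NQO1 was the one that rose. ALDH3A1, the dioxin-inducible aldehyde dehydrogenase of liver, had 0.736 and 0.715 CPM with TCDD at D2 against 0.573 and 0.681 CPM with DMSO at D2, and 0.933 and 0.716 CPM with TCDD at D1 against 0.431 and 0.635 CPM with DMSO at D1. Its log2 fold changes of 0.20 ± 0.29 at D2 and 0.64 ± 0.29 at D1 did not pass (edgeR adjusted p = 0.827 and 0.443), and at 214 counts in all its error was wide. UGT1A6 had 3 counts and GSTA1 13 counts over all libraries, too few for membership. CYP2S1, a P450 described as an AHR target in other cells, had log2 fold changes of -0.03 ± 0.08 at D2 and -0.03 ± 0.08 at D1 (edgeR adjusted p = 0.912 and 0.959). GSTP1 stood at 0.08 ± 0.04 at D2 and at D1 (edgeR adjusted p = 0.397 and 0.551).

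Between the stages, far more members changed. With DMSO, 14 members were higher and 30 lower at D2 than at D1, and 26 did not pass. Among all genes, 32.5% were higher and 30.7% lower, 63.2% in either direction, so the members' 62.9% in either direction is near the background, with 20% higher and 42.9% lower. Their median log2 fold change was -0.15, against 0.01 for all genes. With no composition scaling, which moved the median of all genes to -0.08, the members split into 11 higher and 37 lower. All genes then split into 4377 higher and 6425 lower. By at least 2-fold, 3 members were higher and 8 lower, 4.29% and 11.4%, beside 4% and 9.53% of all genes. Among the 54 members with a mean of at least 1 CPM, 2 were higher and 3 lower by at least 2-fold (3.7% and 5.56%). Time in culture, the change of medium with its inhibitor and any batch between the stages cannot be told apart in this comparison.

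By family, the DMSO comparison gave 3 higher and 13 lower of 25 tested P450 genes, 3 and 7 of 17 ALDH, 4 and 2 of 12 GST, 1 and 3 of 4 UGT, 0 and 3 of 6 SULT, and 3 and 2 of 6 antioxidant genes, beside 32.5% higher and 30.7% lower among all genes. The lower ones include CYP2B6, CYP2A13, CYP2C18, CYP2W1 and SULT1A2, and the higher ones CYP24A1. These low members reached the count minimum only with the stage where they were high, so their direction was in part fixed by the choice. Among the 54 members with a mean of at least 1 CPM, 13 were higher and 23 lower. The members' summed level was 3168 to 3198 CPM with DMSO at D2, against 2668 to 2710 CPM with DMSO at D1. Without ALDH3A2 and GSTO1 the sum was 2516 to 2553 CPM at D2, against 2500 to 2543 CPM at D1. These 2 genes held 20.2% to 20.6% of the members' CPM with DMSO at D2, against 6.19% to 6.28% with DMSO at D1.

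ALDH3A2, which oxidises long-chain fatty aldehydes and is mutated in Sjögren-Larsson syndrome, had 439 and 447 CPM with DMSO at D2, against 114 and 111 CPM with DMSO at D1. The fold was 3.95 (log2 fold change 1.98 ± 0.05, edgeR adjusted p = 1.15e-18). GSTO1, which reduces dehydroascorbate and arsenic compounds with glutathione, had 206 and 205 CPM with DMSO at D2, against 53.7 and 56.5 CPM with DMSO at D1, a fold of 3.74 (1.9 ± 0.05, edgeR adjusted p = 5.33e-18). No other member at 1 CPM or more rose by 2-fold. CYP39A1, an oxysterol hydroxylase of bile acid synthesis, rose by 0.49 ± 0.14 on the log2 scale, with 4.26 and 3.97 CPM at D2 against 2.81 and 3.05 CPM at D1 (edgeR adjusted p = 0.0037). UGT3A2 rose by 0.45 ± 0.05, and ALDH1A3, which makes retinoic acid from retinal, by 0.38 ± 0.10 (edgeR adjusted p = 2.47e-07 and 0.00188). ALDH16A1 rose by 0.31, GSTM4, a mu-class transferase, by 0.30, TXNRD1 by 0.25, GSTP1 by 0.25 and CYP20A1, a P450 without a known substrate, by 0.25 on the log2 scale. The CYP20A1 value was 0.16 without scaling and did not pass (edgeR adjusted p = 0.0533), nor did it without DMSO replicate 2 of D1 or DMSO replicate 1 of D2 (0.0981 and 0.0629). The ALDH1A3 call was lost without DMSO replicate 2 of D2 (edgeR adjusted p = 0.0573). CYP24A1, which degrades vitamin D, passed with 20 counts in the DMSO libraries of D2 against 2 in those of D1, but it reached the member minimum through its D2 libraries, so this rise is a description.

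Of the 23 members with a mean of at least 1 CPM that were lower at D2 with DMSO, the 10 with the largest falls act on varied substrates. SULT2B1, which sulfates cholesterol, had 0.273 and 0.779 CPM with DMSO at D2, against 1.80 and 1.88 CPM with DMSO at D1 (log2 fold change -1.77 ± 0.29, edgeR adjusted p = 2.64e-05). Its 2 D2 libraries differed widely, and the change was -1.23 without replicate 1 and -2.74 without replicate 2 of that group. ALDH1L1 had 1.64 and 1.05 CPM with DMSO at D2, against 4.46 and 3.99 CPM with DMSO at D1 (-1.67 ± 0.18, edgeR adjusted p = 6.51e-08). ALDH1L2 had -0.18 ± 0.13 in the same comparison and did not pass (edgeR adjusted p = 0.222). CYP2J2, an arachidonic acid epoxygenase, fell by 1.08 ± 0.22, and CYP4F22, which hydroxylates very long fatty acids for skin ceramides, fell by 0.96 ± 0.13 on the log2 scale (edgeR adjusted p = 0.000257 and 9.99e-07). SULT1A1, a phenol sulfotransferase, fell by 0.86, the P450 genes CYP4X1 and CYP2U1 fell by 0.77 and 0.68, ALDH3B1 fell by 0.62, ALDH1A1, a retinal dehydrogenase, fell by 0.59 and ALDH5A1, which acts in GABA breakdown, fell by 0.54. The ALDH3B1 call was lost without DMSO replicate 2 of D1 or DMSO replicate 1 of D2 (edgeR adjusted p = 0.276 and 0.101) and with DESeq2 (adjusted p = 0.111).

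CYP2S1, the most abundant P450 member per kb, had 124 and 125 CPM with DMSO at D2, against 149 and 139 CPM with DMSO at D1 (-0.21 ± 0.08, edgeR adjusted p = 0.0338), and this call was lost without DMSO replicate 1 of D1 or either DMSO library of D2 (edgeR adjusted p = 0.111 to 0.158). Larger falls of P450 genes of the CYP2 family rested on few counts. CYP2B6, which oxidises several drugs, had 0.137 and 0.0973 CPM with DMSO at D2 against 0.761 and 0.940 CPM with DMSO at D1, and CYP2A13 had 0.191 and 0.122 against 0.786 and 0.635 CPM in the same groups. CYP2W1, CYP2C18 and CYP2F1, each under 1 CPM in every library, also passed as lower. Over both treatments, CYP2B6 had 21 counts at D2 against 140 at D1, CYP2A13 28 against 111, CYP2F1 44 against 101, CYP2C18 14 against 49 and CYP2W1 12 against 55. Of these genes, all but CYP2F1 reached the 40 counts for membership only with their D1 libraries, so their lower D2 level is in part fixed by the choice of members and is given as a description. CYP2C8 and CYP3A5 had log2 fold changes of 0.04 and 0.02 and did not pass (edgeR adjusted p = 0.895 and 0.967). The 7 hepatocyte markers summed to 0.681 to 0.792 CPM with DMSO at D2 and 0.659 to 0.839 CPM with DMSO at D1. Trophoblast markers, which summed to 0.973 to 1.2 CPM with DMSO at D2 and 9.53 to 10.1 CPM with DMSO at D1, moved the same way. So did the sum of the fibroblast and stroma markers, at 226 to 240 CPM with DMSO at D2 and 424 to 425 CPM with DMSO at D1. The sum of the neuroectoderm markers was 328 to 336 CPM with DMSO at D2 and 618 to 631 CPM with DMSO at D1. Most of these 2 sums was COL1A1 (mean 135 CPM at D2, 325 CPM at D1) and NES (330 and 622 CPM). Of 3 stroma markers tested, 1 rose (COL1A2, log2 fold change 0.29) and 2 fell. Of 3 neuroectoderm markers tested, 1 rose (ZIC1, 1.54) and 1 fell. The part of these marker differences in the falls was not tested.

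CYP2R1 and CYP27B1, which activate vitamin D, were lower with DMSO at D2 (log2 fold changes -0.44 and -0.46, edgeR adjusted p = 5.9e-05 and 0.0412). CYP27B1 was near the threshold, with 1.75 and 1.63 CPM at D2 against 1.88 and 2.77 CPM at D1. CYP2R1 had 13.4 and 13.5 CPM at D2, against 17.6 and 18.9 CPM at D1. VDR, the vitamin D receptor, was lower as well (-2.80 ± 0.43, edgeR adjusted p = 9.19e-06), at 0.0546 and 0.170 CPM with DMSO at D2 against 0.887 and 0.763 CPM with DMSO at D1. Of 4 genes of cholesterol and bile acid metabolism, CYP39A1 was higher and 3 did not pass.

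The antioxidant genes moved in both directions between the stages. With DMSO, GCLC had 76.5 and 73.8 CPM at D2 against 67.5 and 62.2 CPM at D1 (log2 fold change 0.21 ± 0.05, edgeR adjusted p = 0.00131), and GCLM rose by 0.16 ± 0.06 (edgeR adjusted p = 0.0387). The GCLM call was lost with RLE size factors, without scaling and with DESeq2 (adjusted p = 0.0543, 0.349 and 0.14), and without DMSO replicate 2 of D1, either DMSO library of D2 or TCDD replicate 2 of D2 (0.0524 to 0.317). NQO1 had 37.9 and 35.9 CPM at D2 against 45.1 and 43.0 CPM at D1 (-0.26 ± 0.06, edgeR adjusted p = 0.000426), and SRXN1 13.8 and 14.5 CPM against 18.2 and 18.7 CPM (-0.38 ± 0.07, edgeR adjusted p = 0.000129). HMOX1 did not pass (-0.17 ± 0.08, edgeR adjusted p = 0.0812), although it did without scaling (-0.26, adjusted p = 0.0106) and without DMSO replicate 2 of D1 (-0.31, 0.00511). Thus NQO1, which was higher with TCDD than with DMSO at each stage, was lower at D2 than at D1 in both treatments.

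**Figure D4:**
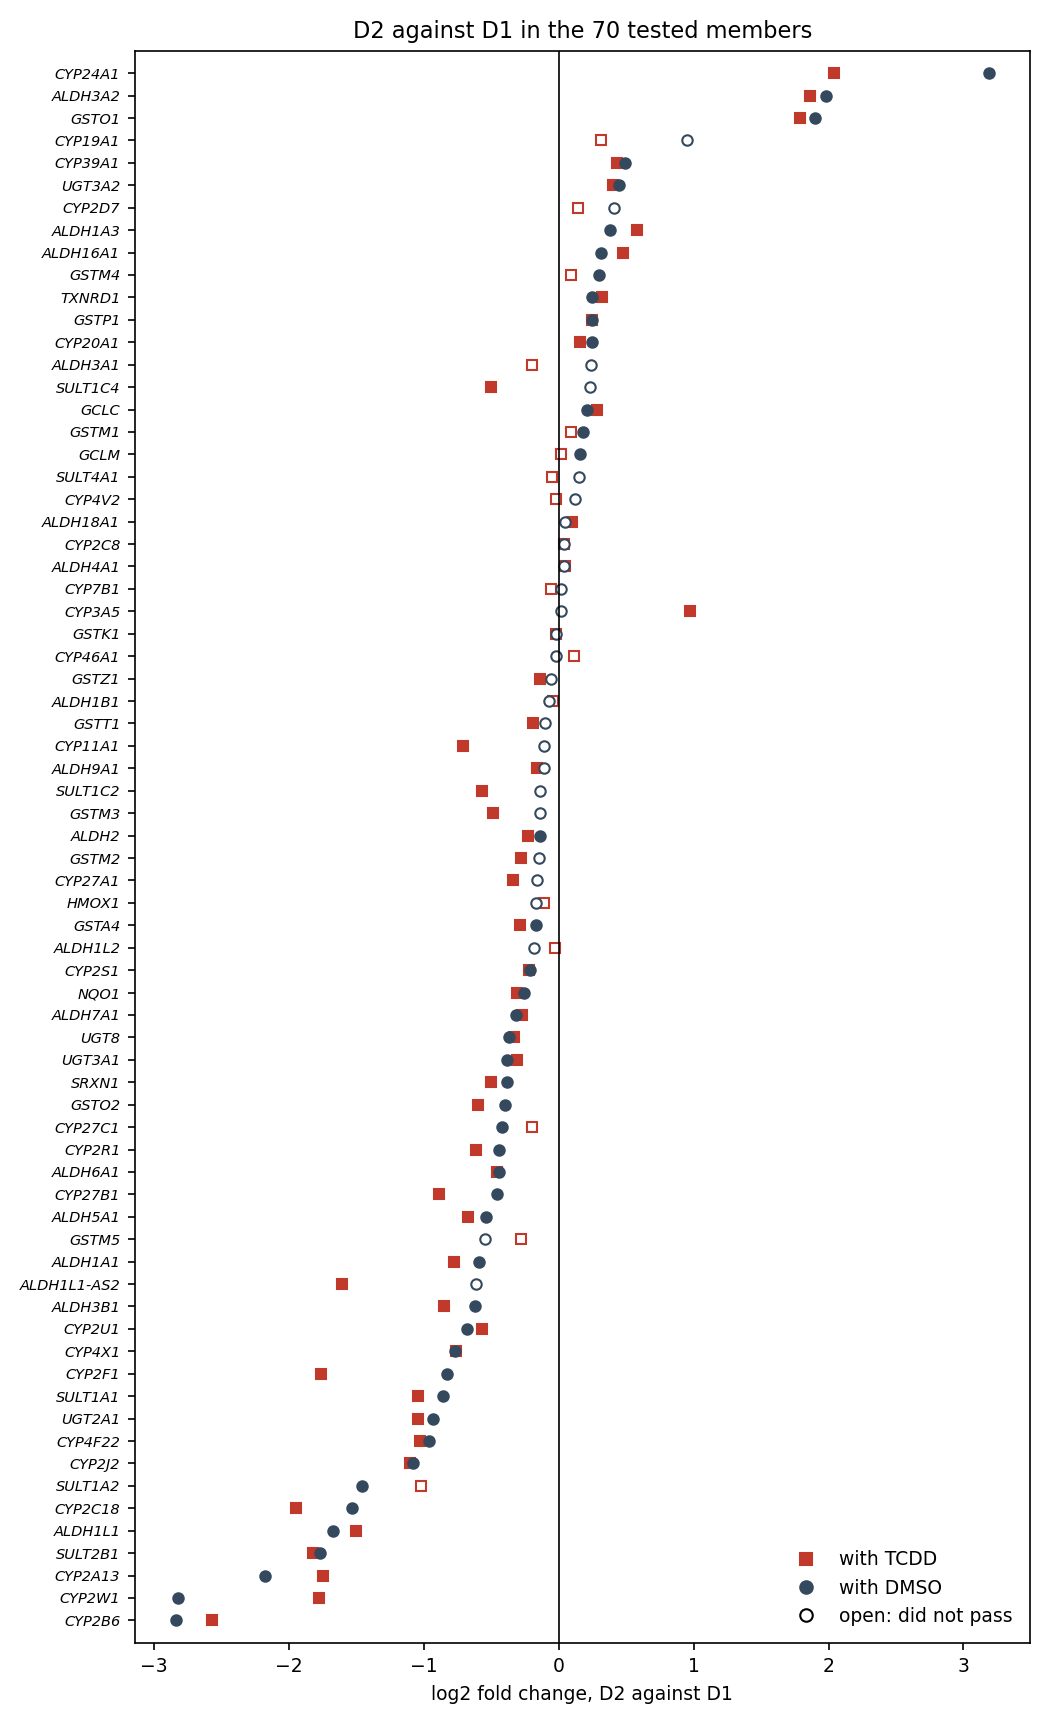
Log2 fold change of D2 against D1 for each of the 70 tested members, with TCDD (squares) and with DMSO (circles), ordered by the DMSO value. Filled symbols had an edgeR p (Benjamini-Hochberg) of 0.05 or less. ALDH3A2 and GSTO1 stand near 2 in both treatments, and most members lie left of 0.

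With TCDD, 13 members were higher and 38 lower at D2 than at D1, beside 33.1% and 32.2% of all genes, 65.3% in either direction, with a median of -0.25. By at least 2-fold, 3 were higher and 12 lower, beside 3.83% and 10.5% of all genes, and among the 54 members with a mean of at least 1 CPM these counts were 2 and 5. At any fold, 11 of these 54 were higher and 31 lower. The counts over all members also hold low members that reached the minimum only with the stage where they were high. The TCDD and DMSO comparisons use different libraries. They gave 11 members higher in both, 28 lower in both, 14 not called in either, and 0 called in opposite directions. How often all genes give these patterns was not counted, so nothing about the members as a set is read from them. ALDH3A2 had 395 and 413 CPM with TCDD at D2 against 111 and 112 CPM with TCDD at D1, a fold of 3.63. GSTO1 had 200 and 193 CPM with TCDD at D2 against 56.2 and 57.7 CPM with TCDD at D1, a fold of 3.45. Members called in 1 of the 2 treatments numbered 17, a pattern also not counted over all genes. For CYP11A1 alone did the difference between treatments pass. CYP11A1 had 7.12 and 7.32 CPM with TCDD at D2 against 12.5 and 11.0 CPM with TCDD at D1 (-0.71 ± 0.09, edgeR adjusted p = 1.31e-06), and -0.11 ± 0.10 with DMSO (edgeR adjusted p = 0.347).

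Members that lie next to each other on a chromosome did not always move together. There were 10 such pairs. In D2 against D1 with DMSO, 2 pairs had opposite calls, 3 had the same call and 5 had at least 1 gene without a call. Among all genes 32.5% were higher and 30.7% lower, and neighbouring pairs of other genes were not counted. The pairs are therefore given as a description. GSTO1 and GSTO2 on chromosome 10 were opposite. GSTO2, also a dehydroascorbate reductase, had 12.6 and 11.9 CPM with DMSO at D2 against 16.3 and 16.1 CPM with DMSO at D1 (-0.40 ± 0.09, edgeR adjusted p = 0.000752). UGT3A1 and UGT3A2 on chromosome 5 were opposite too. UGT3A2 had 53.2 and 52.8 CPM with DMSO at D2 against 38.5 and 38.9 CPM with DMSO at D1, and UGT3A1 had 5.19 and 4.50 CPM against 5.86 and 6.71 CPM (-0.38 ± 0.12, edgeR adjusted p = 0.00801). The pairs that fell together were SULT1A1 with SULT1A2, CYP2B6 with CYP2A13 and CYP2A13 with CYP2F1, all but SULT1A1 under 1 CPM on average, and reads may be shared between relatives where their sequences are near-identical. SULT1A2, CYP2B6 and CYP2A13 had 33, 21 and 28 counts at D2 and reached the member minimum only with their D1 libraries. The shared falls are therefore in part fixed by the choice of members and are given as a description. UGT8, which makes galactosylceramide and has no UGT neighbour here, fell by 0.37 on the log2 scale.

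**Figure D5:**
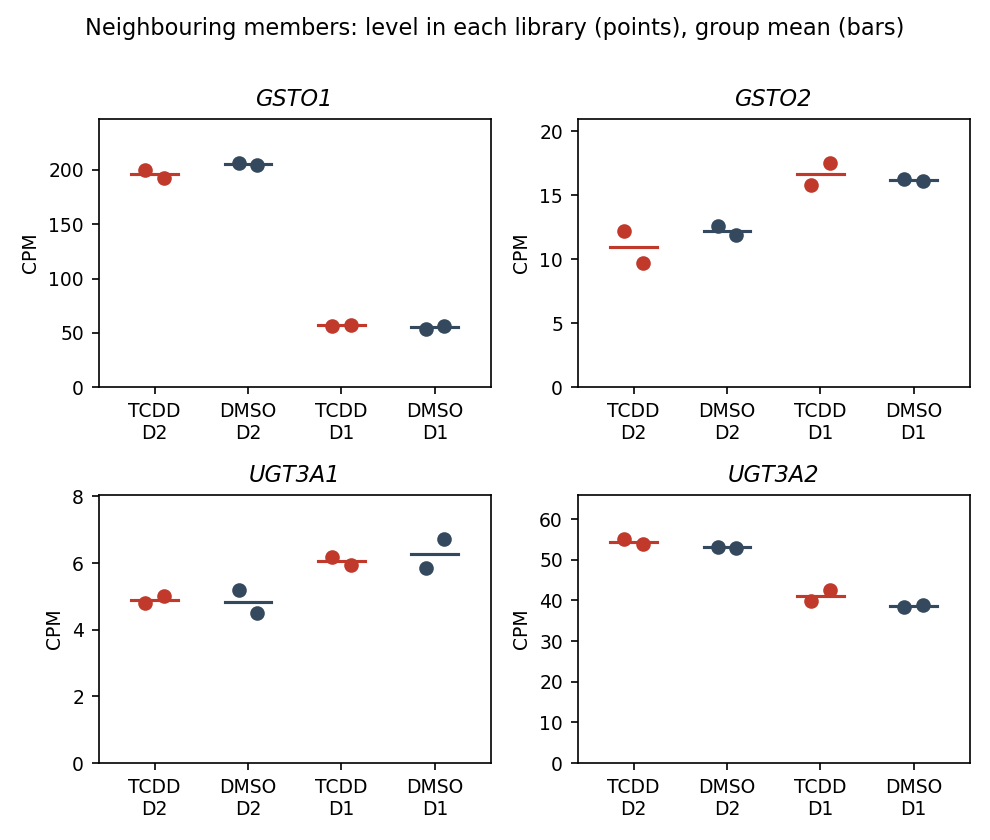
Level in CPM of the neighbouring members GSTO1 and GSTO2 and of UGT3A1 and UGT3A2 in each library (points) with group means (bars), axes starting at 0. GSTO1 and UGT3A2 are higher at D2 than at D1 in both treatments, and GSTO2 and UGT3A1 are lower.

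Pathway genes around the members were called between the stages with DMSO at shares of 42.9% to 71.4% a list, beside 63.2% of all genes in either direction, so nothing about a list is read from its count. Of 10 NRF2 regulators, 1 rose and 5 fell, with KEAP1 at 60.9 and 61.6 CPM at D2 against 84.6 and 87.6 CPM at D1 (-0.49 ± 0.05, edgeR adjusted p = 2.08e-08). BACH2, a repressor at related sites, had -1.43, SQSTM1, which sequesters KEAP1, -0.41, and MAFG, a small MAF partner, 0.32. Of 23 further NRF2 targets, 8 rose and 5 fell, with SLC7A11, the cystine importer, at 0.97 and AKR1C3, a ketosteroid reductase, at -1.90. Of 29 glutathione, peroxide and superoxide enzymes, 11 rose and 6 fell, with SOD3, the extracellular superoxide dismutase, at -1.70. CAT, catalase, was at 0.11 CPM or less in every library. Of 10 xenobiotic receptors tested, 1 rose and 5 fell, with AHR at 10.2 and 12.8 CPM at D2 against 15.3 and 16.0 CPM at D1 (-0.44 ± 0.10, edgeR adjusted p = 0.000663) and NR1I2, the pregnane X receptor, at -1.03. For AHRR, the AHR repressor, the D1 comparison with TCDD gave 3.36 and 3.72 CPM against 1.42 and 1.68 CPM with DMSO (1.19 ± 0.17, edgeR adjusted p = 0.000237). Among 7 genes of cosubstrate supply, 2 rose and 3 fell between the stages, with UGP2, which makes UDP-glucose, at -0.83 and PAPSS1, which makes the sulfate donor, at -0.61. POR, the reductase that feeds electrons to microsomal P450 enzymes, was 1 of 3 of 7 redox partners that fell, with 110 and 114 CPM at D2 against 143 and 141 CPM at D1 (-0.35 ± 0.05, edgeR adjusted p = 2.2e-06). Of 16 other xenobiotic enzymes, 2 rose and 6 fell, with FMO4, a flavin monooxygenase, at -1.48.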

How the data were processed

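RNA sequencing of 8 libraries in 4 groups of 2 was analysed. The deposited tables hold the authors' raw read counts per gene symbol, which are whole numbers without normalisation. Per the submitters' processing notes, cutadapt 1.9.1 trimmed the reads, STAR aligned them to hg19 and featureCounts 1.5.1 counted them. Which annotation and strand setting were used, and how reads matching several genes were handled, is not given in the sources used here, so counts of overlapping, antisense and near-identical genes are uncertain.

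Groups came from the sample titles. Counts were filtered with filterByExpr, scaled by TMM (factors 0.958 to 1.04) and fitted in edgeR 4.0.16 (R 4.3.3, limma 3.58.1) with 1 mean per group and a robust quasi-likelihood fit. Two-sided F tests were adjusted by Benjamini-Hochberg over 17268 genes, and an adjusted p of 0.05 or less was called. Standard errors come from the log2 fold change and the F statistic, and can be too small at few counts. The test was also run on simulated data, whose spread was set to the common value of the main fit. The alternatives were other scaling, no filter, DESeq2 1.42.0, fits of single comparisons, a replicate block, other member minimums and leaving out libraries. Comparisons of TCDD with DMSO and of D2 with D1 share libraries.

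Replicates differed beyond sampling noise (chi-square per gene 3.21 to 6.59 in the 4 groups) and each counted as a sample. The members and lists were chosen with earlier results of these data known. Genes named are those called with TCDD, the antioxidant set and AHR battery, the 10 largest rises and 10 largest falls with DMSO at 1 CPM or more, the leading gene of each family and up to 4 genes a list. Members under 1 CPM, neighbouring pairs, SULT1C2, CAT, AHR, ARE and XRE searches and the P450 groups were added after values were seen. Of the members, 71 matched GENCODE v29 by symbol and 56 had a RefSeq promoter window. CYP2D6 and other near-identical genes listed at 0 were not interpreted.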

Additional observations from a re-analysis of the deposited data

Results flagged for a closer look

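The effect of TCDD on CYP11A1 differed between the stages by -0.60 on the log2 scale (D2 minus D1), which was picked out because the test of that difference passed (edgeR adjusted p = 0.0367). The effect was -0.12 at D2 and 0.48 at D1, and the D1 libraries of TCDD had 12.5 and 11.0 CPM.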

How the results depend on the processing

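With 2 libraries a group, calls near the threshold depended on single libraries. Leaving out each library in turn gave 0 to 3 called members for TCDD against DMSO at D2 (3 with all libraries) and 0 to 3 at D1 (2 with all). At D2 the count was 0 without DMSO replicate 1, and 1 without either TCDD replicate of D2. At D1 it was 0 without DMSO replicate 2, and 1 without replicate 1 of either D1 group. For D2 against D1 the counts were 39 to 52 with TCDD (51 with all) and 32 to 45 with DMSO (44 with all). For the difference of the TCDD effects between the stages, the count was 0 to 1 with a library left out, 2 with no filter beyond 1 count, where SULT1C4 also passed (adjusted p = 0.0362), and 0 with DESeq2. DESeq2 gave 38 called members for D2 against D1 with TCDD and 34 with DMSO. Among all genes it called 9617 and 9207, against 11271 and 10912 in the main fit. Over all genes, no filter raised the TCDD calls to 885 at D2 and 480 at D1, against 500 and 197. The cause of these shifts was not tested. No result changed direction while called. With no composition scaling or with only the D2 libraries fitted, ALDH3A2 was also called lower with TCDD at D2 (-0.15 and -0.14 on the log2 scale, adjusted p = 0.0478 and 0.0433). ALDH1L2 at D1 passed with no composition scaling (adjusted p = 0.0377), with no filter (0.000385) and in 3 of 8 fits that left out a library, and did not with DESeq2 (0.127), with only the D1 libraries fitted (0.099) or in the other 5 (0.0622 to 0.395). A robust fit was chosen after seeing the data, and without it the counts were 3 at D2, 2 at D1, 50 and 44 between the stages with TCDD and DMSO, and 1 for the difference of effects. A summed minimum of 10 or 400 counts gave 84 or 51 members, with 3 calls at D2 and 2 at D1 in either case.

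Correlations of same-numbered replicate deviations over the tested genes ran from -0.1 to 0.11, so no strong pairing by replicate number was seen. Counting noise can hide a weak or narrow pairing, so these values cannot show that the libraries were unpaired. With the number as a block, 3 members were called at D2, 3 at D1 (ALDH1L2 joined, adjusted p = 0.0483), 52 and 44 between the stages with TCDD and DMSO, and 1 for the difference of effects. Depth limits the 18 members under 1 CPM, where 1 CPM is about 40 reads.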
